A study of Homo sapiens with 4 samples.

Results

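The genes that write, maintain and remove DNA methylation were followed after knockdown of JARID2 in the human cell line MDA-MB-231, which derives from a breast carcinoma. The set holds 9 genes chosen by name, and all 9 were found among the 25133 rows with a gene symbol. They are the DNA methyltransferase genes DNMT1, DNMT3A and DNMT3B, their partners UHRF1 and UHRF2, the dioxygenase genes TET1, TET2 and TET3, and the glycosylase gene TDG. RNA was sequenced from 2 shJARID2 libraries, made from cells infected with lentivirus carrying a short hairpin against JARID2, and from 2 shSCR libraries, made from cells infected with a scrambled hairpin. The labels do not say how many hairpin sequences were used or whether replicates were grown apart, so p-values reflect the spread of these 4 libraries, which may be technical. JARID2, a subunit that helps Polycomb repressive complex 2 bind chromatin, measured 3.88 and 3.91 FPKM in shJARID2, against 10.8 and 10.8 FPKM in shSCR. FPKM are fragments per kilobase of gene length, scaled to the size of the library.

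The libraries held about 13000000 and 12800000 reads in shJARID2 and 15500000 and 16200000 in shSCR. As marks of the cell line, CD44, EGFR, CAV1, AXL and MSN were at 53.4 FPKM or more in every library, and the hormone receptor genes ESR1 and PGR at 0.203 FPKM or less. VIM, a mesenchymal marker, was at only 2.10 and 2.77 FPKM in shJARID2 and 3.54 and 4.20 FPKM in shSCR, and other genes share 24.4% of the VIM exon bases. ERBB2 measured 6.58 and 7.57 FPKM in shJARID2 and 15.5 and 15.7 FPKM in shSCR. VIM was expected to be present in this line and ERBB2 to be low or absent. The low VIM and the ERBB2 values depart from that, and whether shared exon bases matter for VIM was not tested. JARID2 changed by -1.27 on the log2 scale (SE 0.059, adjusted p = 0.0014, limma).

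DNA methylation in mammals is placed on cytosines of CpG dinucleotides. DNMT1 copies the pattern onto newly made DNA, and UHRF1 guides it there by binding CpG sites that carry the mark on the old strand only. DNMT3A and DNMT3B place new marks, TET enzymes oxidise methylcytosine step by step, and TDG cuts out the most oxidised forms so that repair can restore a plain cytosine. PRC2 and DNA methylation act on partly separate sets of CpG-rich promoters.

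The promoters of DNMT1, UHRF1 and TDG are shown because these are the genes of the maintenance and excision steps whose measured levels passed the test below. Each sequence is the RefSeq window of build GRCh38.p14 from 250 bases before to 50 bases after an annotated start, 5′ to 3′ on the gene's own strand, with CpG dinucleotides in capitals. For UHRF1, the window is the first listed of its 3.
DNMT1, chr19:10194904-10195203, minus strand: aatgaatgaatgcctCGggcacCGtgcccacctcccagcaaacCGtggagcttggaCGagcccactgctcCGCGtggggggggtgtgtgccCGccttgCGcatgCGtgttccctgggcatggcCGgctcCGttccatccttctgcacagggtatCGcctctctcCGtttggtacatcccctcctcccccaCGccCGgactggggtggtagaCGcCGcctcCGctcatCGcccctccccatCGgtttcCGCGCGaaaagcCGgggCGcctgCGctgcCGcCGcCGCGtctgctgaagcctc
UHRF1, chr19:4909251-4909550, plus strand: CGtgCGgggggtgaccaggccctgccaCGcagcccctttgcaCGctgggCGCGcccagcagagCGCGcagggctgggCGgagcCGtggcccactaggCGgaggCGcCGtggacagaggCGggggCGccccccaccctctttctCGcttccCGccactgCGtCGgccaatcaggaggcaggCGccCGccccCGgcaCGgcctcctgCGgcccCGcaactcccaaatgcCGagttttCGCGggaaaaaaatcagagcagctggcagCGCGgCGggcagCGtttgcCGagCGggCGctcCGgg
TDG, chr12:103965622-103965921, plus strand: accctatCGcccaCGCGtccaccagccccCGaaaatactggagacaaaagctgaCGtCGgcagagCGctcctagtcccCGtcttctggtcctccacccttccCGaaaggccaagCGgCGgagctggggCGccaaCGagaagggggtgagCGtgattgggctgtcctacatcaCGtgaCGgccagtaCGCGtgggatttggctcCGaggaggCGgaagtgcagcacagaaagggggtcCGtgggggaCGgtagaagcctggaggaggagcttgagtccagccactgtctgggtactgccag

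The windows hold 30 CpG dinucleotides for DNMT1, 36 for UHRF1 and 22 for TDG, against a median of 14 over all 35116 promoter windows of the table. The ratio of observed to expected CpG was 0.874 for DNMT1, 0.877 for UHRF1 and 0.737 for TDG, against a median of 0.579. Windows of the other members, not shown, ranged from 3 CpG dinucleotides for DNMT3B (ratio 0.118) to 46 in a DNMT3A window (ratio 1.02). The E2F motif TTTCCCGC was searched on both strands and occurs once in the UHRF1 window, at base 237 on the minus strand, and in 1.63% of all windows. The other 2 UHRF1 windows, not shown, hold no match to it. The variant TTTGGCGC occurs in none of the 3 windows and in 0.652% of all. A CCAAT motif, which overlaps neither, lies once in the UHRF1 window shown (2 and 0 times in the other UHRF1 windows) and once in the TDG window, and in 34.6% of all windows. These matches describe letters in a window and show no binding.

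By measured level, 4 of the 9 genes fell in shJARID2, namely DNMT1, UHRF1, DNMT3A and TDG, and none rose. DNMT1 fell most, to 44.5 ± 2.00 FPKM in shJARID2, against 76.4 ± 2.66 FPKM in shSCR (SD, n = 2 each). DNMT3B, UHRF2, TET2 and TET3 did not pass the test, and TET1 lay below the level needed for testing. Tests were made with limma on log2(FPKM + 1) over the 12455 named genes whose mean reached 1 FPKM, and a gene was called at a Benjamini-Hochberg adjusted p below 0.05. The log2(FPKM + 1) scale understates the change of low genes. In this comparison 31.6% of all tested genes were called lower and 28.0% higher, so 4 of 8 tested members lower is read against a background in which 59.7% of genes were called. No member was higher at an unadjusted p below 0.05 either, while limma-voom on recovered reads called 1 higher and 6 lower. Without shSCR replicate 1 or shSCR replicate 2, 2 members were called lower. The median log2 fold change of the 8 tested members was -0.25, and that of all tested genes was -0.018. In 7 of the 9 genes the groups did not overlap, 6 of them lower in shJARID2 and 1 higher. Of all tested genes, the groups did not overlap in 82.9%, with 43.1% lower and 39.8% higher. In bulk RNA, fewer cells expressing a gene and less RNA per cell cannot be told apart.

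**Figure D1:**
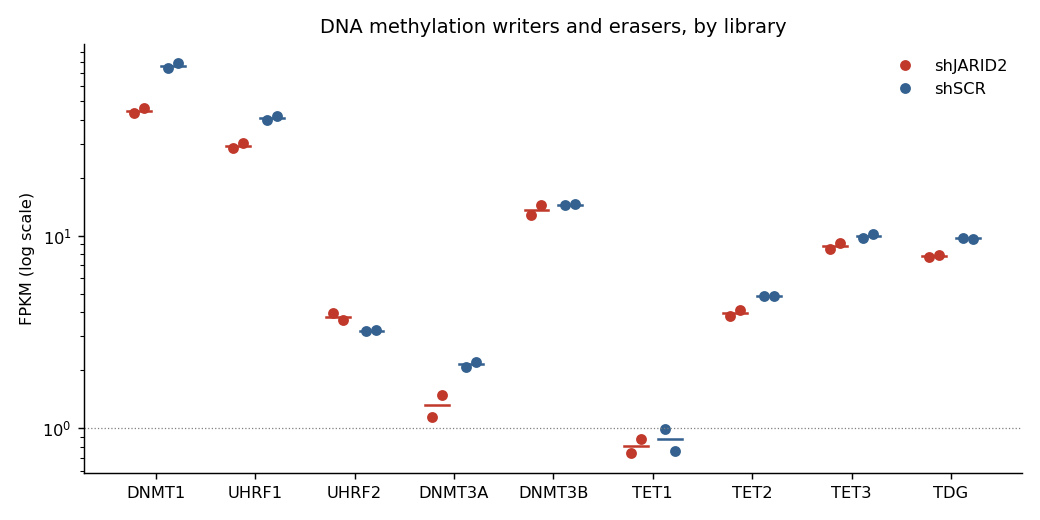
FPKM of each gene (log axis) in the 2 shJARID2 libraries (red, left) and the 2 shSCR libraries (blue, right); horizontal bars are group means and the dotted line is 1 FPKM. DNMT1, UHRF1, DNMT3A, TET2, TET3 and TDG lie lower in both shJARID2 libraries, and UHRF2 lies higher in both. The groups overlap for DNMT3B and TET1.

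Fold changes across all genes followed the GC content of transcripts, so each tested member has a GC-corrected value beside its measured one. Spearman's rho between log2 fold change and median transcript GC content was -0.67 across 12039 tested genes, which are not independent replicates and share the same 4 libraries, and -0.013 after a loess smooth on GC content was removed from each library. The tested members lie between UHRF2 at 41.7% and UHRF1 at 58.1% GC. After the correction 3 members were lower in shJARID2, namely DNMT1, TET2 and TDG, and 1 was higher, DNMT3B. In that fit 44.2% of genes were called, 21.4% lower and 22.7% higher. The median of the 8 members was then -0.059, against 0.00023 for all genes. DNMT1 and TDG were thus the members called lower under both measures.

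**Figure D2:**
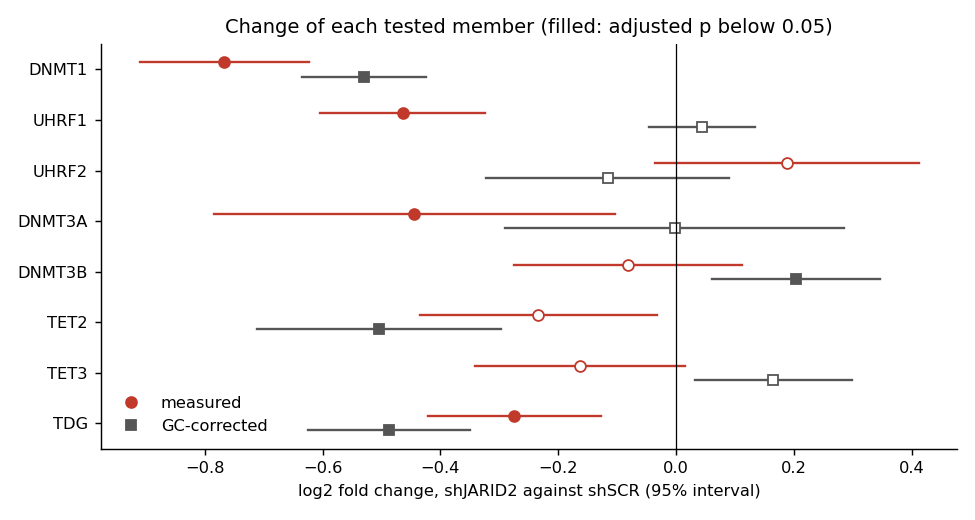
Log2 fold change of shJARID2 against shSCR (x axis) for the 8 tested members (rows), measured (red circles) and GC-corrected (grey squares), with 95% intervals from limma; filled symbols have an adjusted p below 0.05. DNMT1 and TDG are filled and left of 0 in both, and UHRF1 moves from -0.46 to 0.044.

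DNMT1 encodes the maintenance methyltransferase and lies on chromosome 19 from 10133345 to 10231286, minus strand, in GENCODE release 29 on GRCh38. It measured 43.1 and 45.9 FPKM in the shJARID2 libraries, against 74.5 and 78.3 FPKM in the shSCR libraries. Both shJARID2 libraries lay below both shSCR libraries. The level in shJARID2 was 0.583 of that in shSCR, with a log2 fold change of -0.77 (SE 0.054, adjusted p = 0.0014, limma). Of all tested genes, 12.8% had a lower log2 fold change. The GC-corrected value was -0.53 (SE 0.040, adjusted p = 0.0022, limma), below which 9.45% of genes lay. DNMT1 was called lower under all 12 alternatives without GC correction and all 6 with it. Its values rested on 5469 and 5762 reads in shJARID2 and on 11317 and 12418 in shSCR, as recovered from the FPKM steps. DNMT1 was the most abundant member in both groups, above 94.4% of tested genes in shJARID2 and 97.7% in shSCR.

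UHRF1, the partner that recruits DNMT1, lies on chromosome 19 from 4903080 to 4962154 on the plus strand. It measured 28.4 and 30.2 FPKM in shJARID2, against 39.9 and 41.6 FPKM in shSCR, again with separate groups. On the log2 scale the difference was -0.46 (SE 0.052, adjusted p = 0.0030, limma), and it was called lower under all 12 alternatives that left GC content alone. After GC correction it was 0.044 (95% interval -0.046 to 0.13, adjusted p = 0.34, limma), so neither its direction nor its call held. The trend at the GC content of UHRF1 alone amounted to -0.51. Transcripts of UHRF1 had the highest GC content of the set.

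UHRF2 is a relative of UHRF1 on chromosome 9 from 6413151 to 6507054, plus strand, and is known to bind hydroxymethylcytosine. It measured 3.95 and 3.63 FPKM in shJARID2, against 3.18 and 3.22 FPKM in shSCR, the only member with both shJARID2 libraries above both shSCR libraries. The difference missed the threshold (log2 fold change 0.19, 95% interval -0.035 to 0.41, adjusted p = 0.12, limma). It was called only by limma-voom (0.26), and the GC-corrected value had the opposite sign (-0.12, adjusted p = 0.28, limma).

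The ratio of UHRF1 to DNMT1 FPKM was 0.659 and 0.657 in shJARID2, against 0.536 and 0.531 in shSCR. The ratio was thus higher in both shJARID2 libraries, with a difference of 0.30 on the log2 scale (0.58 from GC-corrected levels). With 2 libraries against 2, an exact two-sided permutation test cannot go below p = 0.333, the value reached by this and both other ratios given here.

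The de novo enzymes differed in level and in their values between groups. DNMT3A, on chromosome 2 from 25227855 to 25342590, minus strand, measured 1.15 and 1.48 FPKM in shJARID2, against 2.07 and 2.22 FPKM in shSCR. Both shJARID2 libraries were lower, with means of 1.32 ± 0.234 FPKM in shJARID2 and 2.14 ± 0.101 FPKM in shSCR (SD, n = 2 each). On the log2 scale the difference was -0.44 (SE 0.13, adjusted p = 0.038, limma). Its call was lost without shJARID2 replicate 1 (adjusted p = 0.11, limma), without shSCR replicate 1 (0.12) and without shSCR replicate 2 (0.16), and also without a filter on low values (0.093), with unnamed rows included (0.079) and under a replicate block (0.052). The GC-corrected value was -0.0026, with a 95% interval from -0.29 to 0.29. The reads behind it numbered 179 and 228 in shJARID2 and 386 and 431 in shSCR.

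DNMT3B lies on chromosome 20 from 32762385 to 32809356 on the plus strand. It measured 12.8 and 14.4 FPKM in shJARID2, against 14.4 and 14.5 FPKM in shSCR, and the groups overlapped. The measured difference did not pass (log2 fold change -0.082, 95% interval -0.28 to 0.11, adjusted p = 0.37, limma). The GC-corrected value was higher in shJARID2 (0.20, SE 0.054, adjusted p = 0.039, limma), but this call was lost without shJARID2 replicate 2, shSCR replicate 1 or shSCR replicate 2, and with the replicate number as a term (adjusted p = 0.054, limma). DNMT3B was the more abundant of the de novo pair in every library. The ratio of DNMT3A to DNMT3B was 0.0898 and 0.103 in shJARID2, against 0.144 and 0.152 in shSCR, a log2 difference of -0.63 that was -0.22 from GC-corrected levels.

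The summed FPKM of the 3 methyltransferase genes were 57.1 and 61.9 in shJARID2, against 91.0 and 95.1 in shSCR. DNMT1 made up 74.9 ± 0.904% of this sum in shJARID2 and 82.2 ± 0.312% in shSCR (SD, n = 2 each). The lower sum was thus carried mainly by DNMT1, whose mean differed by 41.7%, while that of DNMT3B differed by 5.75%.

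The TET genes, which encode the oxidising enzymes, kept the order TET3, TET2, TET1 by level in every library. TET3, on chromosome 2 from 73986404 to 74108176, plus strand, measured 8.48 and 9.14 FPKM in shJARID2, against 9.72 and 10.2 FPKM in shSCR. The shJARID2 libraries were lower without overlap, but the difference did not pass (log2 fold change -0.16, 95% interval -0.34 to 0.015, adjusted p = 0.095, limma). The GC-corrected value had the opposite sign and did not pass either (0.17, adjusted p = 0.055, limma). Of the 12 alternatives without GC correction, only limma-voom called TET3 lower (adjusted p = 0.0375, limma-voom).

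TET2 lies on chromosome 4 from 105145875 to 105279816 on the plus strand. It measured 3.83 and 4.12 FPKM in shJARID2, against 4.84 and 4.85 FPKM in shSCR, with separate groups. The measured difference just missed the threshold (log2 fold change -0.23, SE 0.075, adjusted p = 0.053, limma) and passed with a pseudocount of 0.1 FPKM and with limma-voom. After GC correction TET2 was lower in shJARID2 (-0.50, SE 0.078, adjusted p = 0.0094, limma). That call was lost without shSCR replicate 1 (adjusted p = 0.055, limma) and without shSCR replicate 2 (0.068). TET2 transcripts have a GC content of 43.0%, at which the trend over all genes was 0.27, the opposite direction to its own change.

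TET1, on chromosome 10 from 68560656 to 68694482, plus strand, was the least abundant member, at 0.740 and 0.883 FPKM in shJARID2, against 0.986 and 0.765 FPKM in shSCR. These values rest on 89 and 105 reads in shJARID2 and on 142 and 115 in shSCR, and the groups overlap. It did not reach a mean of 1 FPKM and was not tested. The summed TET FPKM were 13.0 and 14.1 in shJARID2, against 15.5 and 15.9 in shSCR. The ratio of summed TET to summed DNMT was 0.229 and 0.229 in shJARID2, against 0.171 and 0.167 in shSCR, a log2 difference of 0.44.

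**Figure D3:**
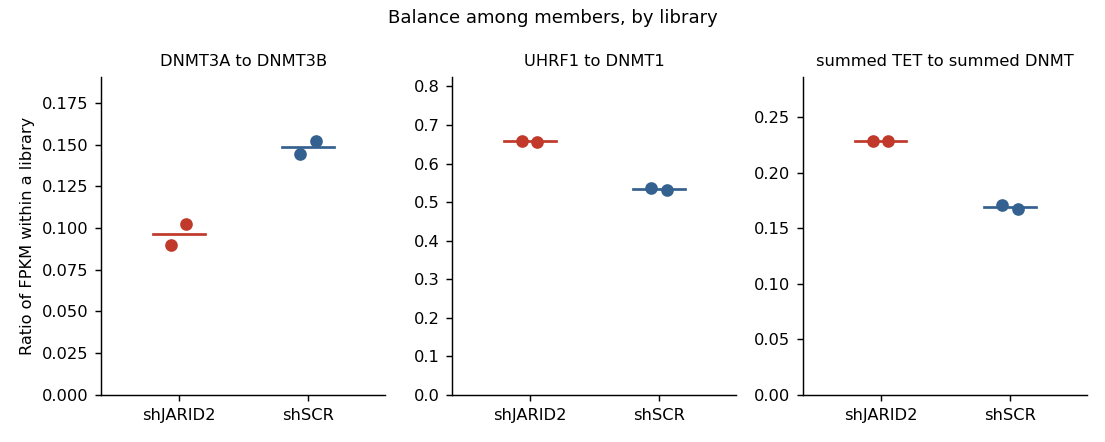
Ratios of FPKM within each library (y axes from 0) in shJARID2 (red, left) and shSCR (blue, right); bars are group means. UHRF1 to DNMT1 and summed TET to summed DNMT are higher in both shJARID2 libraries, and DNMT3A to DNMT3B is lower in both.

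TDG encodes the glycosylase that removes formylcytosine and carboxylcytosine, and lies on chromosome 12 from 103965804 to 103988874, plus strand. It measured 7.73 and 7.90 FPKM in shJARID2, against 9.69 and 9.64 FPKM in shSCR, with separate groups. On the log2 scale the difference was -0.27 (SE 0.055, adjusted p = 0.014, limma), a difference of 19.1% in the mean. That call was lost without shSCR replicate 1 (adjusted p = 0.083, limma) and without shSCR replicate 2 (0.085). The GC-corrected value was larger in size, -0.49 (SE 0.052, adjusted p = 0.0039, limma), and was called in all 6 fits with the correction. TDG, UHRF2 and TET1 each have 1 annotated pseudogene copy that could share reads. Exons of other genes cover at most 0.847% of the exon bases of any member.

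**Figure D4:**
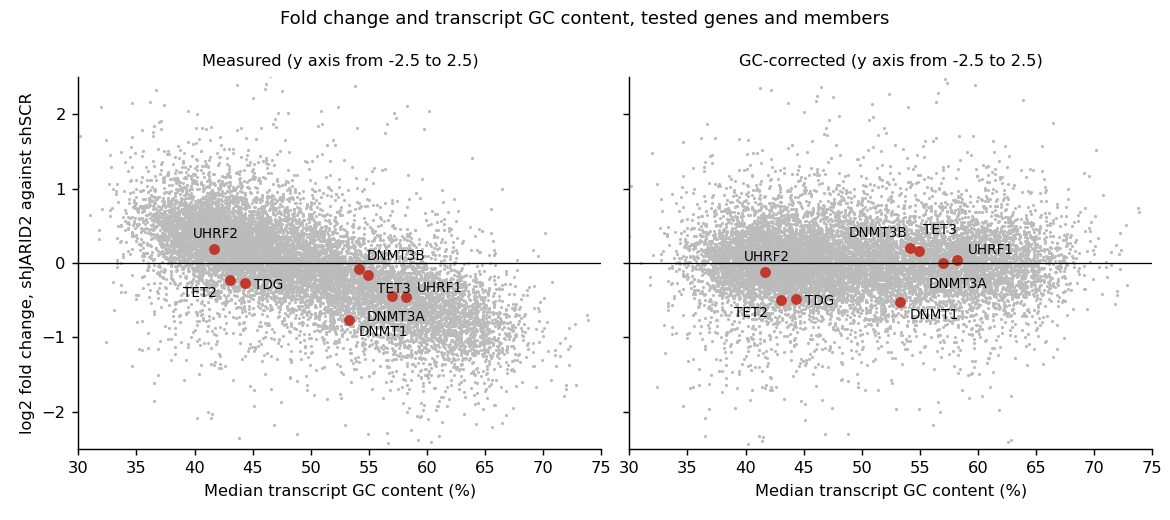
Log2 fold change of shJARID2 against shSCR (y axis) against median transcript GC content in percent (x axis) for tested genes (grey) and the 8 tested members (red), measured (left) and GC-corrected (right); genes beyond the axes are not drawn. UHRF1 and DNMT3A lie within the falling band of GC-rich genes on the left and near 0 on the right, whereas DNMT1, TET2 and TDG lie below 0 in both.

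Among 7 partners of maintenance methylation, 4 rose and 3 fell, and 2 were higher and 2 lower after GC correction, in a comparison that called 59.7% of all tested genes as measured and 44.2% after correction. PCNA, the replication clamp to which DNMT1 binds, rose to 177 ± 2.76 FPKM in shJARID2, against 86.6 ± 2.80 FPKM in shSCR (log2 fold change 1.02, GC-corrected 0.84), so it changed in the direction opposite to DNMT1. CDCA7, which activates the remodeller HELLS, rose by 0.61 on the log2 scale (GC-corrected 0.41). HELLS itself rose by 0.56, a call lost after GC correction (0.12). LIG1, the ligase that joins newly made strands and that UHRF1 binds, fell by 0.75, which was also lost after correction (-0.23). PCNA has 3 annotated pseudogene copies.

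Of 11 genes for methyl-CpG readers, their relatives and zinc finger partners, 10 were tested. Of these, 2 rose and 6 fell, against 28.0% and 31.6% of all tested genes. The falls became 3 without shJARID2 replicate 1, 2 without shSCR replicate 1 or shSCR replicate 2, and 3 with unnamed rows included, and the rises became 1 without shJARID2 replicate 1 or shSCR replicate 2. ZBTB33, which encodes the methyl-CpG binding protein Kaiso, rose (0.72, GC-corrected 0.37). MBD3 (-0.68), TRIM28 (-0.56) and MBD1 (-0.49) fell, but their GC-corrected values were 0.22, 0.030 and 0.074 and did not pass. In all, 1 gene of this list was called higher and 1 lower after the correction. MBD3 also lost its measured call without shSCR replicate 1 or shSCR replicate 2, and other genes share 11.7% of its exon bases.

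The base excision repair list holds other glycosylase genes as well as genes of the steps that follow TDG. It gave 3 rises and 3 falls among 11 tested genes, against 28.0% and 31.6% of all tested genes. After GC correction there were 4 and 2, against 22.7% and 21.4%. limma-voom called 5 of this list higher. UNG, the uracil glycosylase gene, measured 41.2 and 44.7 FPKM in shJARID2, against 29.8 and 29.3 FPKM in shSCR (log2 fold change 0.52, GC-corrected 0.61), and has 2 annotated pseudogene copies. NEIL3 rose (0.66, GC-corrected 0.37) and the ligase gene LIG3 fell (-0.66, GC-corrected -0.53). XRCC1, the scaffold of this repair, fell by 0.70 as measured but not after correction (-0.14). Exons of other genes cover 30.5% of LIG3 exon bases and 24.0% of XRCC1 exon bases, and the use of strand in counting is not given in the sources used here, so both calls are uncertain.

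Genes that supply the methyl donor and the TET cofactor were mostly lower, with 1 rise and 9 falls among 12 as measured, and 6 lower after GC correction. Of all tested genes, 31.6% were called lower as measured and 21.4% after correction. The 9 falls became 5 without shSCR replicate 2. The list median was -0.44 (GC-corrected -0.34), against -0.018 for all tested genes. MAT2A, which makes S-adenosylmethionine, the methyl donor of all DNMT enzymes, measured 19.9 and 19.2 FPKM in shJARID2, against 29.4 and 32.2 FPKM in shSCR (-0.63, GC-corrected -0.80). IDH2 (-0.92, GC-corrected -0.43) and IDH3A (-0.65, GC-corrected -0.87) fell, both of which encode isocitrate dehydrogenases. IDH1, a further isocitrate dehydrogenase gene of the list, was not called under either measure (0.21, GC-corrected -0.061). AHCY, which clears the by-product of methyl transfer, fell by 0.69, a call lost after GC correction (-0.31); it has 6 annotated pseudogene copies and is uncertain. Exons of other genes cover 12.4% of MAT2A and 38.9% of IDH3A exon bases, and IDH3A lost its measured call without shSCR replicate 2.

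Of 5 TET partners, 3 were tested. OGT, whose protein binds TET enzymes, rose (0.39, GC-corrected 0.22), QSER1 rose as measured (0.39, GC-corrected 0.017), and CXXC5 fell as measured (-0.72, GC-corrected 0.055). Among 10 tested relatives of the DNMT genes and regulators of histone marks that guide them, 1 rose and 7 fell, against 28.0% and 31.6% of all tested genes, and 6 were lower after GC correction, against 21.4%. KMT2D (-1.06, GC-corrected -0.53) and EHMT2 (-0.97, GC-corrected -0.38), both histone methyltransferase genes, fell under both measures. TRDMT1, a DNMT relative that methylates transfer RNA, rose as measured (0.68, GC-corrected 0.28), and CXXC1 fell as measured (-0.60, GC-corrected 0.019).

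**Figure D5:**
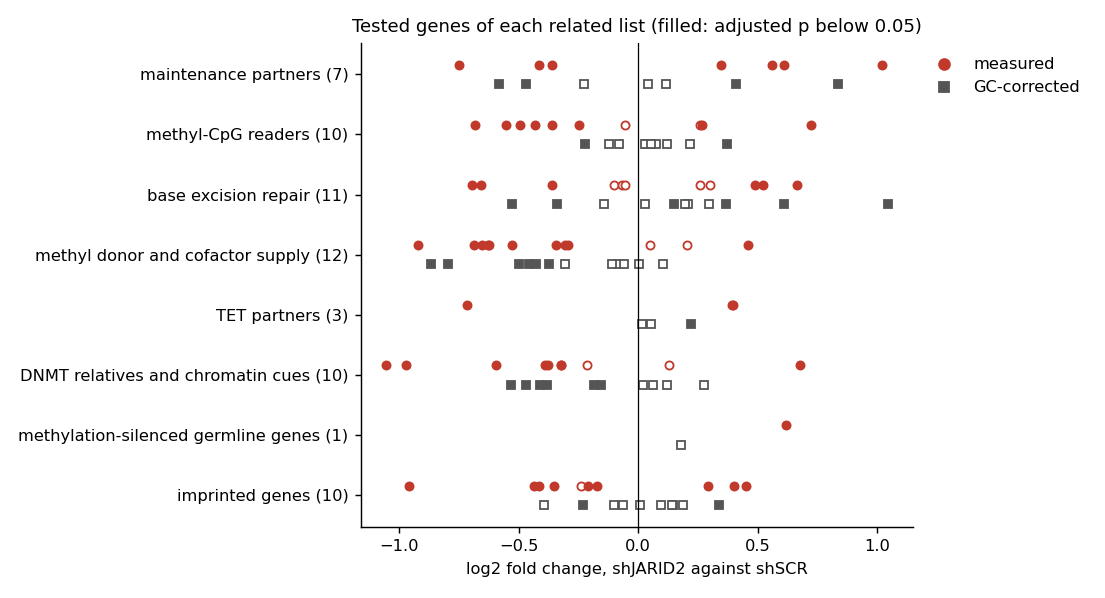
Log2 fold change of shJARID2 against shSCR (x axis) for the tested genes of each related list (rows, number tested in parentheses), measured (red circles) and GC-corrected (grey squares); filled symbols have an adjusted p below 0.05. Genes of methyl donor and cofactor supply lie mostly left of 0 under both measures, with 9 of 12 and 6 of 12 called lower, against 31.6% and 21.4% of all tested genes; the 9 became 5 without shSCR replicate 2.

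Of the germline genes that DNA methylation keeps silent in somatic cells, those analysed here lay near the bottom of the range in both groups, with 1 exception. Of 26 listed, 15 were found and 11 were not analysed here. Below the filter, 14 of them reached at most 0.352 FPKM in shJARID2 and 0.102 FPKM in shSCR, and none was tested. The mean of 13 of these 14 was higher in shJARID2, and in 5 the groups did not overlap, all higher in shJARID2 (SYCP1, TDRD1, TDRD9, TEX101 and HORMAD1, named after their values were seen). The same counts over all genes below the filter were not made, so these have no background. At values this near the bottom of the range they are not read as a change of germline genes. The exception was SYCP3, a synaptonemal complex gene, at 5.30 and 5.59 FPKM in shJARID2, against 3.45 and 2.97 FPKM in shSCR (log2 fold change 0.62, GC-corrected 0.18 without a call). Other genes share 14.8% of the SYCP3 exon bases.

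Imprinted genes, whose parental copies differ in DNA methylation, moved both ways. Of 24 listed, 20 were found and 10 tested, of which 3 rose and 6 fell, and 1 and 1 after GC correction, with the same shares of all tested genes as background. Of the 10 below the filter, the mean was higher in shJARID2 in 5, lower in 4 and equal in 1. The groups did not overlap in 1 of these, CDKN1C, which was lower in shJARID2 and was named after its values were seen. It measured 0.0623 and 0.0630 FPKM in shJARID2, against 0.417 and 0.474 FPKM in shSCR, and was not tested. These counts were not made over all genes below the filter, so they have no background. PHLDA2 measured 110 and 110 FPKM in shJARID2, against 144 and 151 FPKM in shSCR, and its call turned with the correction (-0.42, GC-corrected 0.34). NNAT (-0.96, GC-corrected -0.39), SGCE (0.45, GC-corrected 0.19) and L3MBTL1 (-0.44, GC-corrected -0.065) were called as measured and not after correction. NNAT also lost its measured call without shJARID2 replicate 1 or shSCR replicate 2, SGCE without any 1 of the 4 libraries, and L3MBTL1 without shSCR replicate 1 or shSCR replicate 2. The 6 falls became 3 without shJARID2 replicate 1, 2 without shSCR replicate 1 and 1 without shSCR replicate 2, and the 3 rises became 1 without shSCR replicate 1 or shSCR replicate 2.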

How the data were processed

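RNA of 4 MDA-MB-231 libraries was sequenced, 2 of shJARID2 and 2 of shSCR. The authors deposited 1 file of FPKM per library, a unit read from the file headers. Trimmomatic, HISAT2, SAMtools and featureCounts are named in the submitters' processing notes; versions, settings, strand use and genome build are not stated there. Rows without a symbol (60420 of 85553, 21.1% to 24.5% of all FPKM) were left out. Members and gene lists were chosen with earlier results of these data known.

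Named rows with a mean of at least 1 FPKM (12455) were tested on log2(FPKM + 1), pseudocount 1, with limma 3.58.1 in R 4.3.3 (trended prior, group as the only term; 2 residual degrees of freedom and 2.36 prior ones). P-values were Benjamini-Hochberg adjusted over all tested genes. Exon lengths, coordinates and GC content (median over transcripts) came from GENCODE release 29, matched by symbol; with its lengths, 95.8% to 96.3% of values up to 20 reads lay within 0.05 of a whole read, which gave the depths. The GC correction subtracted a loess smooth (span 0.3, degree 2) per library. Between replicates, the chi-square of reads per degree of freedom was 3.44 in shJARID2 and 2.95 in shSCR. The steps were also run on simulated data in which far fewer genes changed than were called here. That run does not give the error rates of these calls. Named genes were the 9 members, JARID2, cell line markers, and, in each list, the called genes of largest change, at most 4. Exceptions were IDH1 and the genes below the filter in the germline and imprinted lists, which were named after their values were seen. The alternatives changed the scaling, the filter or the pseudocount, used limma-voom, added the replicate number or the GC correction, or left out 1 library.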

Additional observations from a re-analysis of the deposited data

Results flagged for a closer look

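Rows without a gene symbol, which entered no test, held a larger share of all FPKM in the knockdown, 24.0% in shJARID2 replicate 1 and 24.5% in shJARID2 replicate 2, against 21.4% and 21.1% in shSCR replicates 1 and 2. All of them are described as lncRNA, and none is a member. Their part in the members' values was not tested.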

How the results depend on the processing

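With 2 libraries per group, the calls of DNMT1 and UHRF1 held without each library in turn, and those of DNMT3A and TDG did not; a lone library was assumed to vary like the other group. Members called lower ranged from 2 to 4 when a library was left out, with or without GC correction, and members called higher from 0 to 1. All genes called higher ranged from 2168 to 3068 and lower from 2462 to 3763, and genes of the related lists from 11 to 17 higher and from 20 to 32 lower.

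With GC correction, fitted on 12039 genes, 2582 genes were called lower (3941 without it) and 1 member higher. Of the list genes, 9 were called higher (17 without it) and 18 lower (35 without it), among them genes not called as measured. The correction gave log2 differences of -0.22 for DNMT3A to DNMT3B and 0.58 for UHRF1 to DNMT1, and could give none for the summed TET ratio, since TET1 was not tested. Signs turned for UHRF1 (0.044), UHRF2 (-0.12), DNMT3B (0.20), TET3 (0.17), MBD3 (0.22), TRIM28 (0.030), MBD1 (0.074), CXXC5 (0.055), CXXC1 (0.019) and PHLDA2 (0.34). The correction without each library in turn was added after seeing the data, and gave, in the order without shJARID2 replicates 1 and 2 and shSCR replicates 1 and 2, 0.047, 0.040, 0.036 and 0.052 for UHRF1, -0.15, -0.081, -0.14 and -0.091 for UHRF2, 0.066, -0.071, -0.014 and 0.0089 for DNMT3A, 0.26, 0.15, 0.21 and 0.20 for DNMT3B, and 0.18, 0.15, 0.15 and 0.19 for TET3. limma-voom called 1 member higher.

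Deviations of same-numbered libraries were almost uncorrelated (0.029), which does not settle whether the libraries were paired. With replicate numbers as a block, 3 members were lower, since DNMT3A missed the threshold (adjusted p = 0.052, limma). With the block and the GC correction, 2326 genes were lower, and 8 list genes were higher and 18 lower.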
